A study of Mus musculus with 36 samples.

Results

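The 44 collagen genes of the count table, out of 21442 genes in all, were followed through mouse reprogramming with and without Zfp266. Members were taken by name alone, as every gene symbol made of Col, a number, the letter a and a number. No measured value decided which genes belonged, but the gene set was chosen with earlier results of these data known. By structure they were 11 fibril-forming, 9 fibril-associated, 6 basement membrane, 6 beaded filament, 4 transmembrane, 3 short-chain network, 2 multiplexin and 3 anchoring fibril or other genes. Collagens are extracellular proteins of 3 alpha chains wound into a triple helix, and each gene here encodes 1 such chain. Types I, III and V build the fibrils of connective tissue, type IV the sheet of basement membranes, type VI beaded microfilaments, and multiplexins such as Col18a1, the precursor of endostatin, sit at basement membranes. Fibroblasts are a main source of fibrillar collagen, whereas pluripotent stem cells grow as epithelial colonies and make little of it.

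The study asked how loss of Zfp266, a KRAB zinc finger gene, affects the making of induced pluripotent stem cells (iPSCs) from mouse embryonic fibroblasts (MEFs). Bulk mRNA-seq was done on 36 libraries in 12 groups of 3, with WT and KO cells at 6 stages. The MEFs came from E12.5 chimeric embryos, carried Cas9 and a doxycycline-inducible MKOS cassette (c-Myc, Klf4, Oct4 and Sox2), and received a lentiviral guide RNA, non-targeting in WT and against Zfp266 in KO. They were collected 96 hours later. For D3, D5 and D7 cassette-carrying MEFs were a minority among WT MEFs of strain 129, were transduced in that mixture and then given 300 ng/ml doxycycline and 10 µg/ml vitamin C in ESC medium, and mOrange+ cassette-expressing cells were sorted at day 3, 5 or 7. WT and KO groups therefore shared Cas9, the cassette, guide transduction and, at D3 to D7, the drug treatment. KO libraries at these 4 stages are edited populations and not clones. By their sample labels the MEF, D3, D5, D7 and iPSC libraries, WT and KO, are all of strain 129. The ESC labels name no strain, but the study's reporting summary gives a 129 background for the Cas9-carrying ESC line, of which Clone J was used. iPSCs were clones from single cells sorted at day 15 and kept in 1 µg/ml puromycin with doxycycline withdrawn. KO ESCs were single-cell clones made with a guide plasmid in the ESC line Clone J, and WT ESCs stand for that 1 line, as 3 libraries.

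Library totals ranged from 19224103 to 39610939 counted reads. A count of 3 reads, taken as the detection floor, corresponded to between 2.31 and 5.22 normalised counts. Zfp266 itself had 2828 to 3096 normalised counts in WT MEFs and 3072 to 3293 in KO MEFs, and since small insertions and deletions need not lower a transcript, its count does not check the labels. Prrx1, a mesenchymal transcription factor, lay at 15039 to 16319 in WT MEFs and at 0 in WT iPSCs, and Nanog, a pluripotency factor, lay at 3.48 to 6.37 and at 4853 to 6216. Some libraries stood apart. In MEF KO replicate 3, of 35 collagen genes with a mean above 50 normalised counts, 7 lay over 1.5 times above and 13 over 1.5 times below all 5 other MEF libraries, among them Col12a1 at 38906 against 9451 to 12509 and Col18a1 at 2968 against 23513 to 24214. Its summed fibroblast markers, 179210 against 210167 to 235040, were the lowest of the 6. Single fibroblast markers spread in both directions in KO MEFs. Pdgfra had 12508 to 21865 normalised counts in KO and 12474 to 12841 in WT, and Thy1 11899 to 19242 and 18710 to 19291. Other sums also spread, with epithelial markers at 429 to 3060 in KO MEFs and 1901 to 2164 in WT. Muscle markers summed to 2545 to 5706 in KO and 5825 to 6327 in WT. D7 KO replicate 3 lay over 1.5 times below all 5 other D7 libraries for 6 of 25 collagen genes with such a mean (Col1a1, Col1a2, Col3a1, Col6a2, Col8a1 and Col12a1). iPSC WT replicate 2 lay over 1.5 times below the other 5 iPSC libraries for 5 of 16 and above for 1. Counts without each library were computed, and they are given where they differ.

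Sequence upstream of the start site is shown for 4 genes that behaved differently below, Col3a1, Col1a2 and Col5a1, which fell during reprogramming, and Col18a1, which returned. The sequences are from RefSeq on GRCm38.p6. Capitals mark a TATAAA box in Col3a1, a CCAAT box, read on the other strand as ATTGG, in Col18a1, and GGGCGG boxes, read on the other strand as CCGCCC, in the other genes and Col18a1.
Col3a1, chr1:45311288-45311537, + strand: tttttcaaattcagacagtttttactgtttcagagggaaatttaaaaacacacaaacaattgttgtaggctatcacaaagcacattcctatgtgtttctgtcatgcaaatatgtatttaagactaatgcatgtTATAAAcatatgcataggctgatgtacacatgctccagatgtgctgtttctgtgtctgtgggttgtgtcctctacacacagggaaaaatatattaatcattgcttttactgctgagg
Col1a2, chr6:4505370-4505492, + strand: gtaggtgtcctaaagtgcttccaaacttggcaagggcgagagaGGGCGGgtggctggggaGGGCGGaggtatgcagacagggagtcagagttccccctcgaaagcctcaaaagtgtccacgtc
Col5a1, chr2:27886175-27886424, + strand: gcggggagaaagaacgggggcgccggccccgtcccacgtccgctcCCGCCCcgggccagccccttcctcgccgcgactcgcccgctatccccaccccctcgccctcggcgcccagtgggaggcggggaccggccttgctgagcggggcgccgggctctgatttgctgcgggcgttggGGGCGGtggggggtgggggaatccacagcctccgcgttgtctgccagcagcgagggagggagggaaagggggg
Col18a1, chr10:77166549-77166780, - strand: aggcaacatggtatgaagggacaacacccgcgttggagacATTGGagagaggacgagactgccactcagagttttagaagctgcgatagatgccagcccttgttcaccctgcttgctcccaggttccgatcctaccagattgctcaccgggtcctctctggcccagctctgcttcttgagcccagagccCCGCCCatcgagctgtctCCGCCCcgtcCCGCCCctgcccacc
The TATAAA of Col3a1 began 117 bases before its start site, and the 3 CCGCCC runs of Col18a1 began 61, 43 and 33 bases before it. Promoter windows of 300 bases were found for 35 of the 44 genes, as 38 windows among 32851 in all. GGGCGG was present in 23 of the 38 collagen windows (60.5%) against 35.7% of all windows, CCAAT in 13 (34.2%) against 37.4%, TATAAA in 5 (13.2%) against 13.6%, and TGANTCA, the AP-1 motif, in 1 (2.63%) against 7.81%. Both strands were searched, a base could belong to matches of several motifs, and these matches are descriptions of the sequence only.

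Collagen transcripts took a large share of the fibroblast transcriptome and lost most of it by day 3. The 44 genes held 1.87% ± 0.036 (SD, n = 3) of all counted reads in WT MEFs, 0.190% at D3, 0.140% at D5, 0.207% at D7, 0.0468% in iPSCs and 0.0461% in ESCs. The share was 9.86-fold lower at D3 than in MEFs and 40.6-fold lower in ESCs than in MEFs. In bulk RNA, fewer collagen-making cells and less collagen RNA per cell cannot be told apart. Of the 44 genes, 34 had their highest WT mean in MEFs, and the number with a WT mean above 1000 normalised counts went from 19 in MEFs to 12 at D3, 8 at D5, 10 at D7 and 1 in iPSCs.

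**Figure D1:**
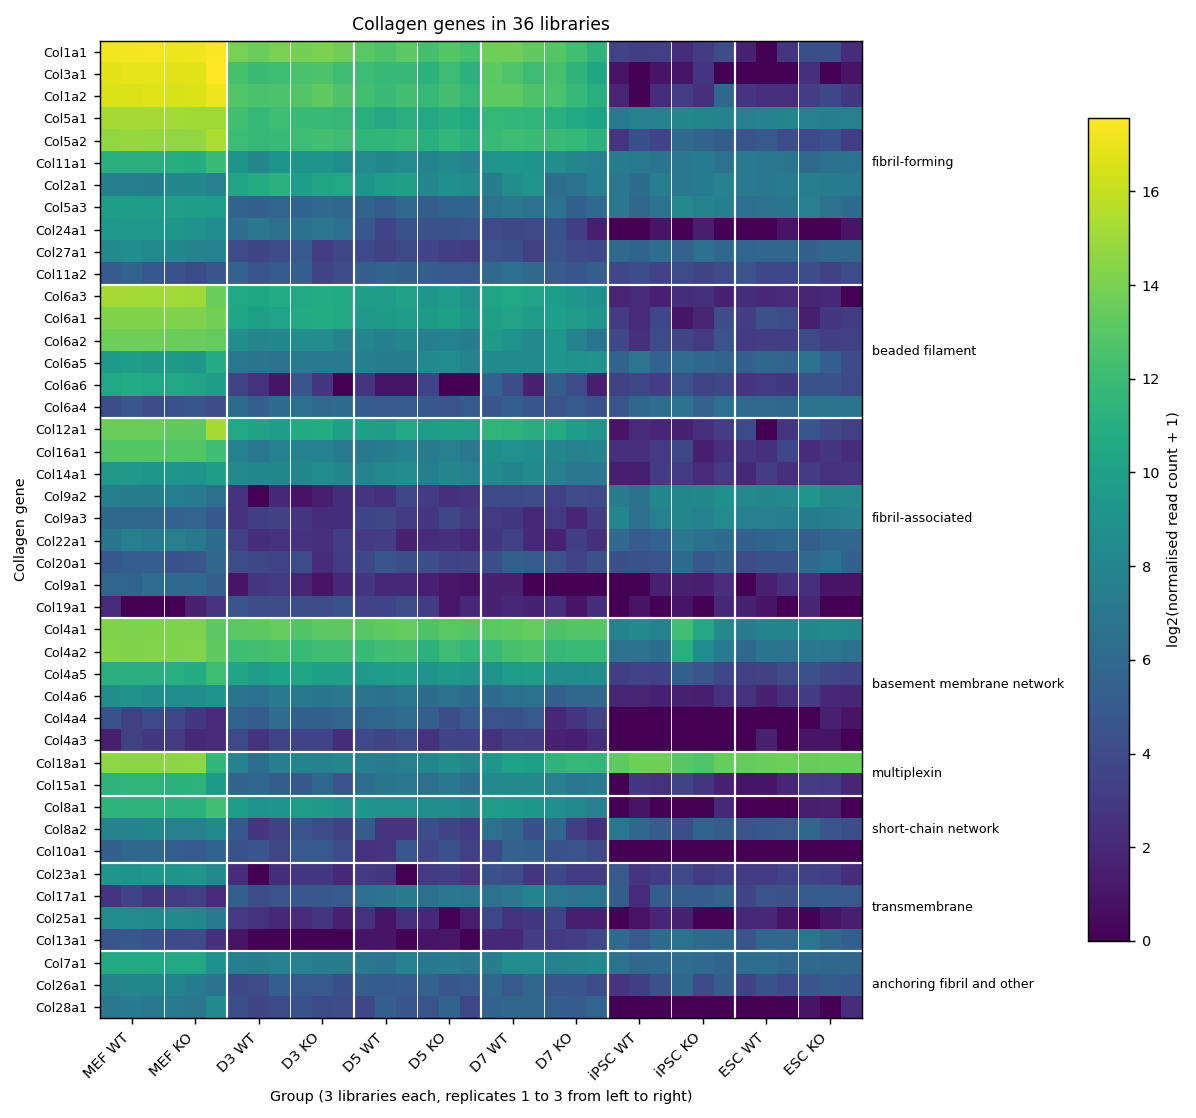
Heat map of log2(normalised read count + 1) for the 44 collagen genes (rows, grouped by structural class) in all 36 libraries (columns, 3 per group). Most rows are brightest in the 6 MEF columns, and Col18a1 is bright in MEFs, dark at D3 and bright again in iPSCs and ESCs.

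Between MEFs and D3 in WT cells, 37 of 44 collagen genes fell and 5 rose (DESeq2, FDR under 0.05, the rule for every such call below), where 37.1% of all tested genes fell and 33.8% rose. The median log2 fold change was -3.23 over the collagen genes and -0.01 over all tested genes. Col1a1, the main chain of type I collagen, had 159248, 158060 and 165480 normalised counts in the 3 WT MEF libraries and 16393, 12199 and 16904 at D3. The groups were far apart, with a log2 fold change of -3.41 (SE 0.41, DESeq2 FDR 2.98e-16). Its partner Col1a2 was 15.9-fold lower and Col3a1, the type III chain, 25.8-fold lower. Larger drops were those of Col6a6, a type VI chain, at -8.12 (SE 1.05), of Col23a1, a transmembrane collagen, at -7.78 (SE 0.65), and of Col18a1 at -7.18 (SE 0.44) on the log2 scale. Col18a1 went from 24186, 23760 and 23513 normalised counts to 225, 79.0 and 189, a 145-fold drop.

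Not every class fell alike. All 6 genes of the basement membrane class were measured, and 4 fell and 1 rose, with a median log2 fold change of -1.001, against -4.30 for the 6 beaded filament genes and -3.18 for the 11 fibril-forming genes. Col4a1, a core type IV chain, was 2.01-fold lower (DESeq2 FDR 0.0422) and its partner Col4a2 3.91-fold lower (DESeq2 FDR 6.82e-05). The 2 genes lie head to head on chromosome 8 with starts 21 bp apart and overlapping exons, and strand use in the counting was not stated, so reads in the overlap are uncertain. Together they held 6.26% of collagen reads in WT MEFs, 25.0% at D3 and 32.6% at D5.

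The 5 genes that rose by D3 were Col2a1, Col4a4, Col6a4, Col17a1 and Col19a1. Col2a1, the main cartilage fibril chain, had 193, 185 and 176 normalised counts in WT MEFs and 1205, 1786 and 2427 at D3, so the groups did not overlap (log2 fold change 3.29, SE 0.35, DESeq2 FDR 2.55e-20). Col4a4, a type IV chain of restricted tissue distribution, had 9.09 to 20.9 normalised counts in MEFs and 34.0 to 76.6 at D3. Col19a1, a fibril-associated collagen, had 0 to 3.48 in MEFs, at or under the floor, and 15 to 21.1 at D3. Of 6 chondrocyte markers, 1 was higher and 2 lower at D3 than in MEFs, against 33.8% and 37.1% of all tested genes. Their sums lay at 1524 to 1654 normalised counts in WT MEFs and 903 to 1379 at D3. Their part in the Col2a1 result was not tested.

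From D3 to D5 in WT cells 5 of 44 collagen genes fell and 2 rose, against 12.7% and 12.4% of all tested genes. Neither count exceeded the share of all tested genes. Col24a1, a minor fibril-forming chain, fell by 2.35 on the log2 scale (SE 0.33) and Col5a1, the type V chain that starts fibril assembly, by 1.09 (SE 0.17). Col2a1 fell by 1.14 (SE 0.34). Col17a1, a hemidesmosome component of epithelial cells, rose from 40.3, 17.0 and 21.3 to 85.4, 107 and 167 normalised counts (log2 fold change 2.19, SE 0.44, DESeq2 FDR 1.02e-05). Col15a1, the other multiplexin, rose from 34.9 to 54.0 at D3 to 77.7 to 132 at D5 (log2 fold change 1.26, SE 0.38), and its call was lost without D5 WT replicate 3. The 5 falling genes became 3 without D3 WT replicate 1 or 3 or D5 WT replicate 1. Summed keratinocyte markers (Krt5, Krt14 and others) were 5107 to 8922 normalised counts at D3 and 10328 to 14204 at D5, and their part in the Col17a1 result was not tested.

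From D5 to D7 in WT cells 12 of the 42 collagen genes with an FDR rose while 2 fell, against 13.5% and 10.7% of all tested genes. The median log2 fold change was 0.66 over the collagen genes and 0.02 over all tested genes. Col18a1 had 185, 144 and 197 normalised counts at D5 and 600, 1169 and 991 at D7, with no overlap (log2 fold change 2.39, SE 0.44, DESeq2 FDR 1.62e-06). Col6a6 rose by 3.02 (SE 1.13) on the log2 scale, but from 1.03 to 5.82 normalised counts to 2.06 to 45.6, so the groups overlapped. Col8a2, a short-chain collagen, likewise overlapped, at 5.16 to 34.9 and 18.5 to 96.4. Col16a1 (log2 fold change 1.31) and Col5a1 (0.70) rose without overlap, and Col2a1 and Col4a4 fell by 1.09 and 1.38 on the log2 scale. Leaving out D7 WT replicate 2 left 5 rising genes, and leaving out D5 WT replicate 2 or D7 WT replicate 1 left 7 each. The 2 falling genes became 0 without D5 WT replicate 3 and 1 without D7 WT replicate 1 or 2.

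WT iPSCs and WT ESCs each had 1 collagen gene with a mean above 1000 normalised counts, Col18a1. From D7 to iPSCs in WT cells 30 of 44 collagen genes fell and 7 rose, against 37.7% and 35.8% of all tested genes, and in ESCs against MEFs 36 fell and 4 rose, against 39.4% and 40.0%. The median log2 fold change of ESCs against MEFs was -6.40 over the collagen genes, or -5.21 with genes absent from 1 group set at the 3-read floor per library, and 0.05 over all tested genes. Col1a1 had 10.4, 8.61 and 9.28 normalised counts in WT iPSCs and 2.01, 0 and 5.21 in WT ESCs, and Col1a2 0 to 3.71 and 4.05 to 6.02. Col3a1 had no read in any WT ESC library, at least 41707-fold lower than in WT MEFs at the floor of 3 reads per library. Col8a1, a short-chain network chain, was also without reads in WT ESCs, at least 918-fold lower.

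Col18a1 rose 13.2-fold from D7 to WT iPSCs, to 9259, 13148 and 14099 normalised counts, and was 10944, 11800 and 13030 in WT ESCs. It remained below the MEF level (log2 fold change of ESCs against MEFs -0.998, SE 0.43, DESeq2 FDR 0.028). On the scale of normalised counts per kb of transcript, its mean level in WT iPSCs was 2540 and that of the next collagen gene, Col9a3, was 65.6. It held 3.83% of collagen reads in WT MEFs, 0.273% at D3 and 86.2% in iPSCs, not corrected for length. Col9a3 and Col9a2, chains of the fibril-associated type IX collagen of cartilage, rose by 5.21 (SE 0.48) and 3.65 (SE 0.41) on the log2 scale from D7 to iPSCs. Col9a3 reached 299, 90.4 and 211 normalised counts from 3.09 to 7.10. Exons of Tcfl5 overlap Col9a3 on the opposite strand by 234 bp, and exons of Gm47575 and Gm36993 overlap Col6a4 by 289 bp, so their counts are uncertain without a stated strand rule. Against MEFs, ESCs were higher in Col9a3 (3.61-fold), Col6a4 (3.10-fold), Col17a1 (2.36-fold) and Col9a2 (1.79-fold), of which 2 passed without MEF WT replicate 3 or ESC WT replicate 3.

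No collagen gene differed between WT iPSCs and WT ESCs, where 2.11% of all tested genes were higher and 1.09% lower. DESeq2 gave an FDR for 23 of the 44 and set none for the other 21, 4 genes had an unadjusted p under 0.05, and edgeR also called 0. Without iPSC WT replicate 3 there was 1 call in each direction, and without iPSC WT replicate 2 or ESC WT replicate 3 there was 1 lower gene.

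**Figure D2:**
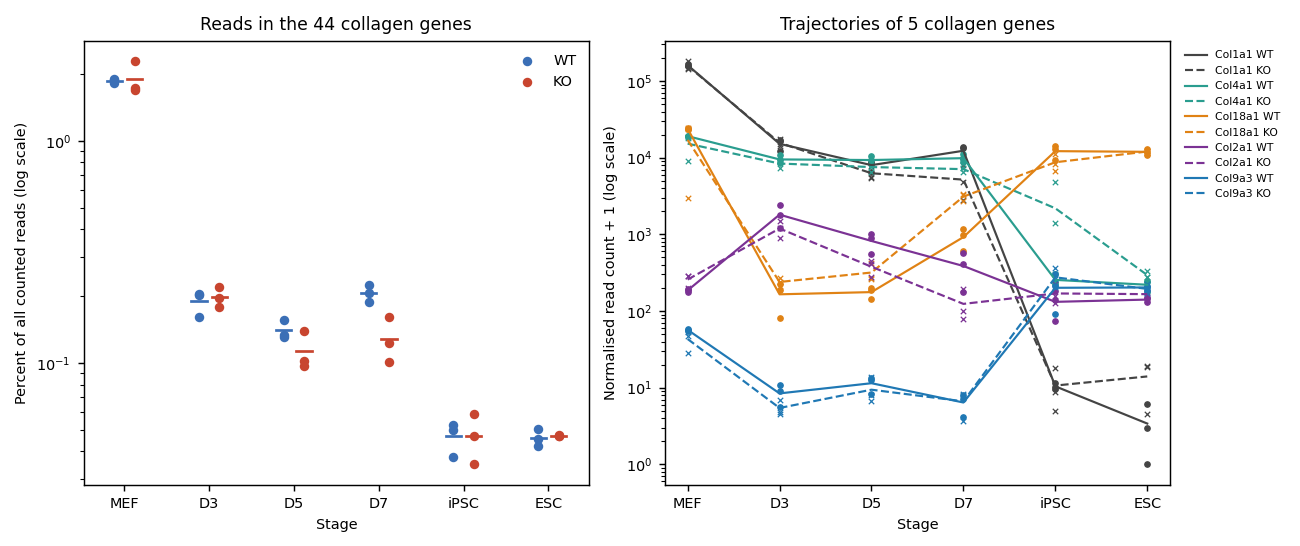
Left, percent of all counted reads in the 44 collagen genes by stage (log axis), points for libraries and bars for means, WT blue and KO red. Right, normalised read count + 1 (log axis) of Col1a1, Col4a1, Col18a1, Col2a1 and Col9a3 by stage, lines for means, points for libraries, solid for WT and dashed for KO. At D7 the KO points, 0.101% to 0.162%, lie below the WT points, 0.189% to 0.225%.

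Collagen genes had no call between KO and WT in MEFs or at D3. In MEFs, 0 of 44 collagen genes passed, where 0.0285% of all tested genes were higher and 0.0143% lower in KO, and 0 passed without MEF KO replicate 3. DESeq2 gave 1 collagen gene with an unadjusted p under 0.05, Col11a2, and edgeR called 0. The 3 KO libraries all lay below the 3 WT libraries for 13 collagen genes, against 6.49% of all tested genes, and all above for 1, against 5.89%, and 30 of 44 log2 fold changes were negative, with a median of -0.19 beside -0.00 over all tested genes. The collagen share of reads was 1.91% ± 0.335 (SD, n = 3) in KO MEFs, and 2.29% was the value of replicate 3. At D3, 0 of 38 collagen genes with an FDR passed in either direction by DESeq2 or edgeR, where 0.374% of all tested genes were higher and 0.119% lower. Col6a1, a type VI chain, was the only collagen gene with an unadjusted p under 0.05 there, at 1329, 1028 and 1217 normalised counts in WT and 1701, 1861 and 1645 in KO (log2 fold change 0.54, DESeq2 FDR 0.263).

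At D5 1 of 41 collagen genes with an FDR was lower in KO and 0 were higher, against 2.43% and 4.72% of all tested genes. edgeR called 0 in both directions, and 5 collagen genes had an unadjusted p under 0.05 in DESeq2. The gene was Col2a1, with 549, 885 and 1024 normalised counts in WT and 276, 451 and 404 in KO, without overlap (log2 fold change -1.12, SE 0.35, DESeq2 FDR 0.0229). The call was lost with edgeR (FDR 0.0531) and without D5 WT replicate 2 or 3 or D5 KO replicate 1 or 3 (FDR up to 0.185). Without MEF KO replicate 3, 1 collagen gene was higher at D5. Summed chondrocyte markers were also lower, at 629 to 978 normalised counts in WT and 292 to 449 in KO, and their part in the Col2a1 result was not tested.

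At D7 the collagen share of reads was lower in KO, and 14 collagen genes were lower and Col18a1 was higher. Of 44 collagen genes 14 were lower and 1 higher, against 16.1% and 13.3% of all tested genes, and 39 of 44 had a negative and 5 a positive log2 fold change. The median was -0.75 over the collagen genes and -0.04 over all tested genes. The 3 KO libraries all lay below the 3 WT libraries for 17 collagen genes, against 26.6% of all tested genes, and all above for 2, against 20.8%. The collagen share of reads was 0.207% ± 0.0178 (SD, n = 3) in WT and 0.129% ± 0.0304 (SD, n = 3) in KO, 1.61-fold lower without overlap. Leaving out 1 library gave between 10 lower genes, without D7 WT replicate 3, and 21, without D7 KO replicate 1, with 11 without D7 KO replicate 3. Among the fibril-forming genes 5 of 11 were lower, with 2 of 9 fibril-associated, 3 of 6 basement membrane, 1 of 6 beaded filament, 1 of 3 short-chain, 1 of 2 multiplexin, 1 of 3 anchoring or other and 0 of 4 transmembrane genes. The beaded filament and fibril-associated counts lie near the share of all tested genes, and Col18a1, the gene that was higher, is a multiplexin.

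Col5a1 had the lowest FDR. Its normalised counts were 3306, 3248 and 2989 in WT and 2114, 1429 and 1180 in KO, a log2 fold change of -1.02 (SE 0.17, DESeq2 FDR 3.87e-08). Every KO library lay below every WT library. Antisense exons overlap Col5a1, and without a stated strand rule their reads cannot be told apart from its own. Its partner chain Col5a2 had 3834, 4449 and 4051 normalised counts in WT and 4044, 3513 and 2480 in KO and did not pass.

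Type I collagen was lower as well. Col1a1 had 13488, 13601 and 9848 normalised counts in WT and 7911, 4837 and 2771 in KO, without overlap (log2 fold change -1.25, SE 0.41, DESeq2 FDR 0.0107). Col1a2 had 9687, 9646 and 6483 in WT and 6212, 3501 and 2159 in KO. These groups did not overlap either, but DESeq2 gave an FDR of 0.0588, edgeR 0.00658 and the fit without iPSC KO replicate 1 0.0404. Col3a1 had 8893, 6704 and 4279 in WT and 5649, 2785 and 1374 in KO, which overlap. Its FDR was 0.0858 in DESeq2, 0.0361 in DESeq2 with the replicate number as a block, and 0.0238 in edgeR. D7 KO replicate 3 was the lowest library for all 3 genes, and without D7 KO replicate 1 Col1a2 and Col3a1 passed (DESeq2 FDR 0.00986 and 9.73e-05).

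Col2a1 was lower at D7 too, at 178, 415 and 565 normalised counts in WT and 78.3, 98.0 and 192 in KO (log2 fold change -1.65, SE 0.35, DESeq2 FDR 3.37e-05). One KO library lay above the lowest WT library, so the groups overlapped. The chondrocyte markers Hapln1, Acan and Sox9 also fell, 3 of 6 measured, with sums of 433 to 486 in WT and 166 to 204 in KO, and their part in the Col2a1 result was not tested. Col11a1 and Col11a2, type XI chains of the same cartilage fibrils, were lower by 0.94 (SE 0.28) and 1.14 (SE 0.33) on the log2 scale, without overlap, though the Col11a1 call was lost in 1 of 13 other fits.

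Among the other classes, 2 fibril-associated genes, 1 short-chain network gene and 1 beaded filament gene were lower. Col14a1, a fibril-associated collagen, had 345, 242 and 330 normalised counts in WT and 207, 124 and 125 in KO (log2 fold change -1.01, SE 0.24, DESeq2 FDR 0.000225). Col16a1, of the same class, had 427, 463 and 391 in WT and 263, 199.6 and 239 in KO (log2 fold change -0.87, SE 0.23, DESeq2 FDR 0.0011). Col8a1 had 799, 754 and 616 in WT and 452, 328 and 200 in KO (log2 fold change -1.15, SE 0.30, DESeq2 FDR 0.000932). None of these 3 genes overlapped between WT and KO. Col6a3, the largest type VI chain, had 1251, 1508 and 1243 in WT and 932, 568 and 440 in KO (log2 fold change -1.05, SE 0.28, DESeq2 FDR 0.00159), also without overlap, while its partner Col6a1 had 994, 1223 and 905 in WT and 977, 833 and 615 in KO and did not pass.

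All 6 basement membrane genes had a negative log2 fold change, and 3 of them passed. The minor chains Col4a4, Col4a5 and Col4a6 passed, with log2 fold changes of -1.86 (SE 0.52), -0.91 (SE 0.27) and -0.72 (SE 0.24). The abundant chains Col4a1 and Col4a2 did not, and neither did the minor chain Col4a3. Col4a3 had 20 reads in WT and 8 in KO over 3 libraries each. The Col4a5 call was lost without D7 WT replicate 3, and the Col4a6 call without D7 WT replicate 3, without D7 KO replicate 1 and in the fit of the D7 libraries alone. Col4a1 had 8693, 9676 and 11195 normalised counts in WT and 6453, 7376 and 7434 in KO, without overlap, with a log2 fold change of -0.48 and a DESeq2 FDR of 0.491. In a fit of the D7 libraries alone, with the spread estimated from these 6 libraries, the FDR of Col4a1 was 5.32e-06. Col4a4 had 20.1 to 28.8 normalised counts in WT and 3.01 to 10.9 in KO, near the floor. Col15a1 and Col26a1 passed at an FDR of 0.0215 and 0.0378 in DESeq2, but in 9 and 7 of 13 other fits only. Col6a3, Col4a3, Col4a4, Col4a5, Col4a6, Col11a1, Col11a2, Col15a1, Col26a1, Col1a2 and Col3a1 were named in this comparison after their values were seen.

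Col18a1 rose. It had 600, 1169 and 991 normalised counts in WT and 2691, 3397 and 3231 in KO at D7, a 3.38-fold difference without overlap (log2 fold change 1.76, SE 0.44, DESeq2 FDR 0.000456), and it passed in all 13 other fits. It took 1.51% of collagen reads in WT and 8.80% in KO. At D5 it had 185, 144 and 197 in WT and 272, 418 and 261 in KO, also without overlap (log2 fold change 0.85, DESeq2 FDR 0.287). Col6a5, a type VI chain named after its values were seen, was the other gene whose KO libraries all lay higher, at 338, 319 and 343 in WT and 601, 513 and 536 in KO (log2 fold change 0.72, DESeq2 FDR 0.135), and in the fit of D7 libraries alone it passed (FDR 2.09e-09).

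**Figure D3:**
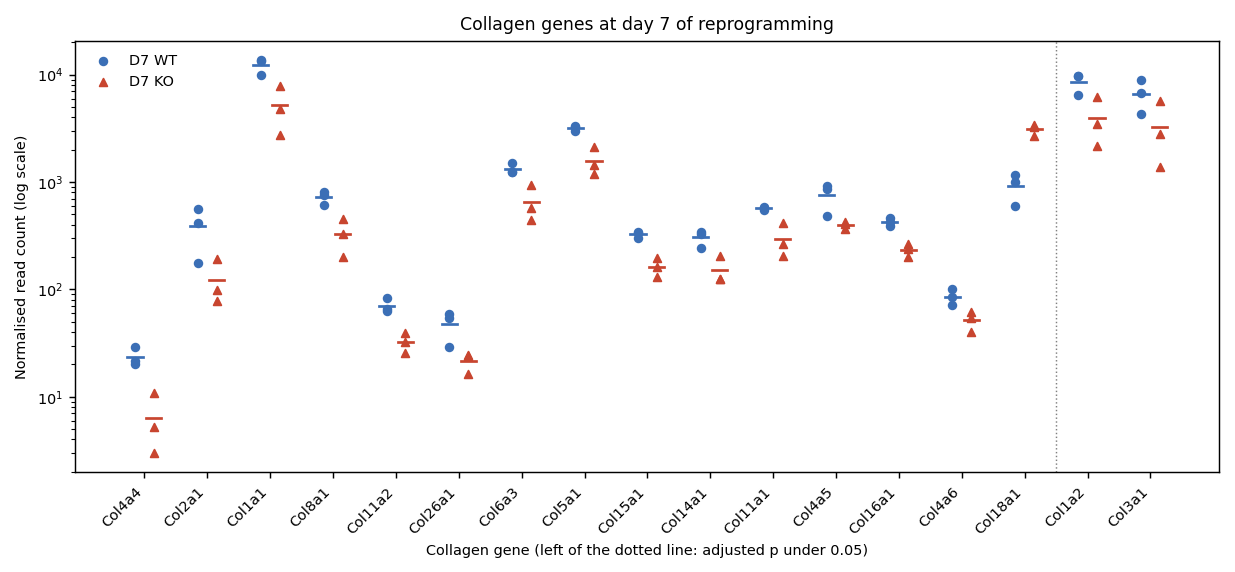
Normalised read counts (log axis) at D7 for the 15 collagen genes that passed the test and, right of the dotted line, Col1a2 and Col3a1, which did not. Circles are WT and triangles KO libraries, and bars are means of 3. The KO points lie below the WT points for 13 of the 14 lower genes, Col2a1 overlaps, and Col18a1 lies above.

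Most collagen genes, 36 of 44, are lower in WT ESCs than in WT MEFs, and they held nearly all of the D7 calls. Of the 36 such collagen genes 13 (36.1%) were lower and 1 was higher at D7 in KO, and 34 had a negative log2 fold change. Among all tested genes lower in ESCs than in MEFs, 25.5% were lower at D7 in KO. Of the 4 collagen genes higher in ESCs than in MEFs 0 were lower at D7 in KO by DESeq2, where 9.19% of all such genes were. A set of 4 is too small to tell apart from that share. Marker sums moved too at D7. The 14 fibroblast markers summed to 20442 to 25990 normalised counts in WT and 11471 to 12348 in KO, with 7 lower and 1 higher of 13 tested, and the 12 pluripotency markers to 10500 to 14198 in WT and 30085 to 37093 in KO, with 12 higher. Prrx1, at 624 to 779 in WT and 362 to 519 in KO, was not at 0 in any D7 library. The part of these in the collagen results was not tested.

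The other marker lists at D7 gave 2 higher of 9 epithelial, 2 higher of 6 endothelial, 0 of 8 extraembryonic endoderm, 0 of 6 macrophage, 1 lower of 3 tested muscle, 3 lower of 4 keratinocyte and 1 lower of 6 neural and glial genes. Ptprc, the leukocyte marker, stayed between 3.01 and 14.5 normalised counts in the D7 libraries.

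The change from D3 to D7 was tested directly. The KO effect was more negative at D7 than at D3 for 7 of 41 collagen genes with an FDR and more positive for 0 by DESeq2, against 7.19% and 5.82% of all tested genes. edgeR gave 5 and 0, and 18 collagen genes had an unadjusted p under 0.05. Col5a1 went from -0.16 at D3 to -1.02 at D7, a difference of -0.85 (SE 0.24, DESeq2 FDR 0.0057). Col6a1 went from 0.54 to -0.36, Col14a1 from 0.01 to -1.01, Col16a1 from 0.10 to -0.87, Col8a1 from 0.09 to -1.15, Col6a3 from 0.13 to -1.05 and Col11a1 from 0.15 to -0.94 on the log2 scale. With the replicate number as a block the differences of Col16a1 and Col6a1 did not pass. In edgeR those of Col14a1 (FDR 0.0575), Col16a1 (0.0554) and Col8a1 (0.0581) did not pass, nor did Col8a1 in the fit of the compared groups alone (FDR 0.052). Leaving out 1 library gave between 2 and 14 such genes, with 2 genes without D3 WT replicate 2, D3 KO replicate 2 or D7 KO replicate 2, 3 without D7 WT replicate 2, 4 without D3 KO replicate 1 or D7 WT replicate 3, and 14 without D7 KO replicate 1. Without MEF KO replicate 3, 10 were more negative and 1 more positive. Between D7 and D5 the KO effect was more negative for 1 of 39 collagen genes, Col5a1 (-0.77, SE 0.24, DESeq2 FDR 0.0274), and more positive for 0, against 3.02% and 2.83% of all tested genes. edgeR called 0 of these, and 2 collagen genes had an unadjusted p under 0.05.

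**Figure D4:**
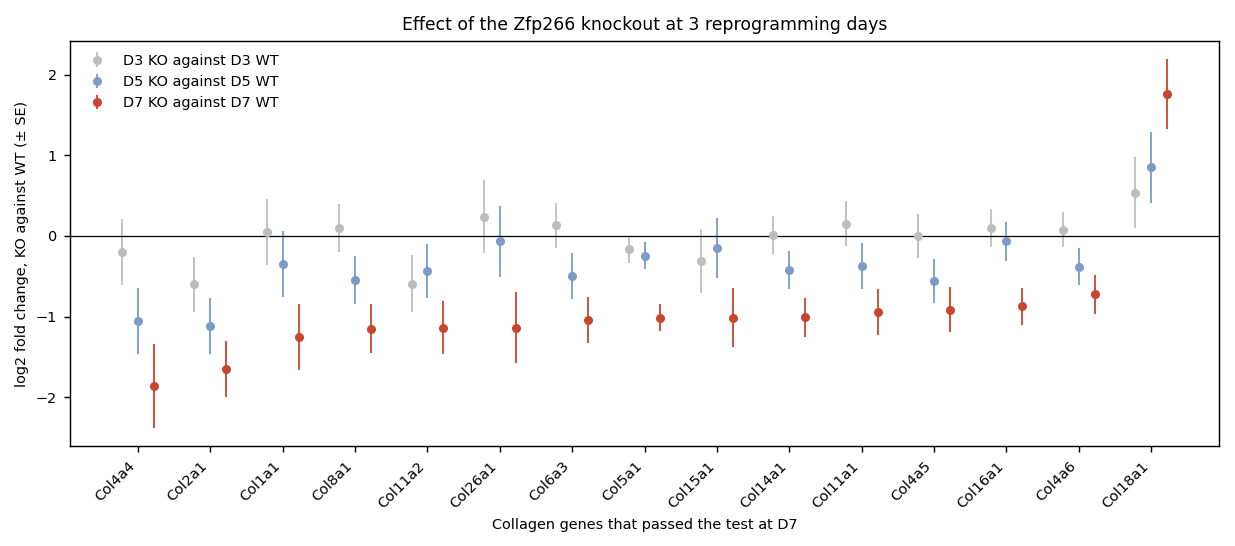
Log2 fold change of KO against WT (points, error bars ± SE) at D3, D5 and D7 for the 15 collagen genes that passed the test at D7. Col5a1 moves from -0.16 at D3 to -1.02 at D7 and Col18a1 from 0.54 to 1.76, the genes having been chosen on their D7 values.

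Genes that process, bind or degrade collagen were read at D7 as lists, beside 16.1% of all tested genes lower and 13.3% higher. Of 13 collagen hydroxylases and glycosyltransferases, 6 were lower and 1 higher in KO. P4hb, the shared subunit of prolyl 4-hydroxylase, was lower by 0.38 on the log2 scale (DESeq2 FDR 4.07e-15), P4ha3, a catalytic subunit, by 1.19, and Plod1, a lysyl hydroxylase, was higher by 1.03. Of 7 procollagen proteinases and enhancers, 3 were lower and 1 higher, with Bmp1, which removes the C-propeptide, at -0.90 (DESeq2 FDR 7.01e-08), Adamts3 at -0.92 and Pcolce2 at -0.47. Of 5 crosslinking enzymes, 2 were lower, Loxl2 at -0.83 and Lox at -1.16. Of 11 chaperones and secretion factors, 1 was higher, Mia2 at 0.34, and 1 lower, Creb3l1 at -0.81, both shares under those of all tested genes.

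Outside the cell, where the same 16.1% and 13.3% apply, 4 of 10 tested fibril-associated proteoglycans and glycoproteins were lower and 1 higher. The small proteoglycan Dcn was at -1.14 (DESeq2 FDR 1.16e-07), Prelp at -1.42 and Fmod at -1.35, and the fibronectin gene Fn1 was higher, at 0.55. Of 8 collagen receptors, 2 were lower, Ddr1 at -0.51 and Ddr2 at -0.82, both kinases that bind collagen. Of 7 collagen-degrading proteases, 4 were lower, led by Mmp2 at -0.80 (DESeq2 FDR 3.45e-08), Fap at -1.76 and Ctsl at -0.48. Of 8 TGF-beta ligands and receptors, 3 were lower, Tgfb2 at -1.41 (DESeq2 FDR 1e-09), Tgfb3 at -0.59 and Tgfbr2 at -0.33. The list medians ranged from -0.07 for the chaperones to -0.80 for the proteoglycans, beside -0.04 over all tested genes.

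In iPSC clones the direction was the opposite. Of 44 collagen genes 8 were higher in KO and 0 lower, against 9.72% and 6.63% of all tested genes. edgeR called 7 higher and 0 lower, and 11 had an unadjusted p under 0.05 in DESeq2. The median log2 fold change was 0.45 over the collagen genes and 0.02 over all tested genes. The mean collagen share of reads was 0.0468% in WT and 0.0470% in KO, with 0.0350% to 0.0591% in the KO libraries. Col18a1 made up 86.2% of collagen reads in WT and 63.7% in KO, at 46.7%, 64.1% and 80.2% in KO replicates 1 to 3. Col18a1 itself did not pass (log2 fold change -0.48, DESeq2 FDR 0.517).

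The type IV pair had the lowest FDR values and came from unequal clones. Col4a1 had 235, 304 and 223 normalised counts in WT and 4846, 1408 and 303 in KO, so that KO replicate 3 lay within the WT range (log2 fold change 3.11, SE 0.47, DESeq2 FDR 7.34e-09). Col4a2 had 95.9, 95.6 and 73.3 in WT and 2150, 376 and 148 in KO, without overlap (log2 fold change 3.34, SE 0.48, DESeq2 FDR 1.67e-09). Both were highest in KO replicate 1 and lowest in KO replicate 3. Without KO replicate 1 they passed with smaller log2 fold changes of 1.75 and 1.57, and in the fit of the iPSC libraries alone Col4a1 did not pass (FDR 0.0549).

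The other 6 genes were lowly expressed. Col5a2, a type V chain, had 5.18, 18.9 and 11.1 normalised counts in WT and 66.9, 46.9 and 35.4 in KO (log2 fold change 2.08, SE 0.32, DESeq2 FDR 3.03e-08). Col5a3, a second type V chain, had 132, 58.6 and 100.2 in WT and 339, 231 and 190 in KO (log2 fold change 1.39, SE 0.31, DESeq2 FDR 0.000233). Neither overlapped, and both passed without KO replicate 1 and in the fit of the iPSC libraries alone. Col1a2 had 0 to 3.71 in WT, at or near the floor, and 7.99, 4.34 and 58.6 in KO. Its fitted log2 fold change, 3.50 (SE 0.74), was the largest of the 8, rests on few reads in WT, and without KO replicate 3 its FDR was 0.146. Col26a1 (log2 fold change 1.70), Col4a5 (1.39) and Col20a1 (1.23) did not pass without KO replicate 1 (DESeq2 FDR 0.141, 0.190 and 0.328). Without that library 5 collagen genes were higher and without MEF KO replicate 3 there were 10.

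Summed extraembryonic endoderm markers were higher in the KO clones, most strongly in KO replicate 1. Among 8 such genes measured, 5 were higher in KO iPSCs, and their sums were 137 to 203 normalised counts in WT and 236, 371 and 1489 in KO from lowest to highest. Gata6, a defining factor of primitive endoderm, had 17.3, 42.2 and 7.42 in WT and 204, 12.2 and 16.2 in KO, and Sox17 2.59, 3.44 and 1.86 in WT and 64.9, 1.74 and 11.1 in KO. Their highest values were in KO replicate 1, the library with the highest Col4a1 and Col4a2. KO replicate 2 was second for both collagen genes, with Gata6 within and Sox17 below the WT values. Hnf4a was higher in all 3 KO clones, at 217, 228 and 82.8 against 33.7, 4.31 and 5.57. It was the largest member of the sum in KO replicates 2 and 3. Dab2 had 38.9, 33.6 and 63.1 in WT and 649, 46.0 and 69.7 in KO. Sox7 had 10.4, 16.4 and 12.1 in WT and 83.9, 4.34 and 6.06 in KO. The higher sums in KO replicates 2 and 3 thus rested largely on Hnf4a, and no fit of these markers without KO replicate 1 is given. Afp was at 0 in 5 of the 6 iPSC libraries. The laminin gene Lama1, named after its values were seen and like type IV collagen a part of basement membranes, had 1690, 2489 and 1977 in WT and 6195, 6057 and 1653 in KO. A second laminin gene, Lamb1, had 1835, 2243 and 2672 in WT and 3106, 1252 and 3088 in KO, which overlap, with KO replicate 2 the lowest. The part of these in the collagen results was not tested.

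**Figure D5:**
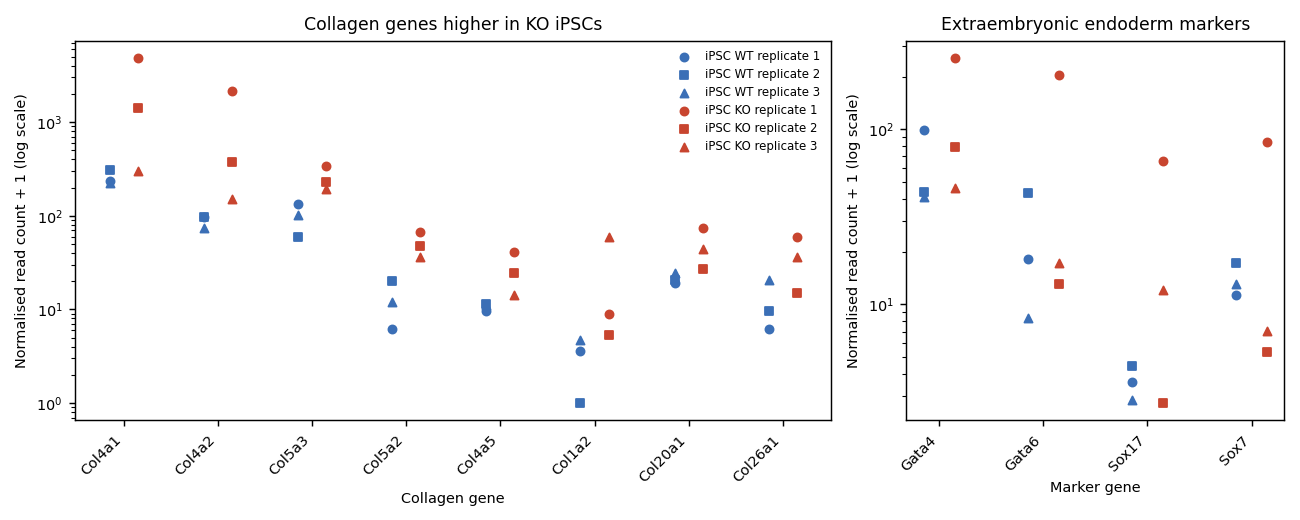
Normalised read count + 1 (log axis) in iPSC libraries for the 8 collagen genes higher in KO (left) and 4 extraembryonic endoderm markers (right), WT blue, KO red, with 1 marker shape per replicate number. KO replicate 1 is highest for Col4a1 (4846) and for Gata6 (204).

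In ESCs 2 of 40 collagen genes with an FDR were higher in KO and 1 was lower, against 5.82% and 4.29% of all tested genes, so the counts were near the background. edgeR called 1 higher and 0 lower. Col20a1, a fibril-associated collagen, had 17.1, 20.2 and 20.8 normalised counts in WT and 67.3, 82.7 and 43.1 in KO, without overlap (log2 fold change 1.73, SE 0.43, DESeq2 FDR 0.00205). Col1a1 had 2.01, 0 and 5.21 in WT and 18, 17.5 and 3.59 in KO, and Col6a1 8.03, 19.2 and 15.6 in WT and 1.80, 5.84 and 7.18 in KO. Both lie near the floor, the Col1a1 groups overlapped, and neither passed in edgeR. Without ESC WT replicate 2 no collagen gene passed by DESeq2, without ESC KO replicate 2 1 was higher, and without ESC KO replicate 1 0 were lower.

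The KO effect was larger in iPSCs than in ESCs for 3 of 39 collagen genes with an FDR and smaller for 0 by DESeq2, against 0.924% and 0.547% of all tested genes. edgeR called 1 and 0, and 8 collagen genes had an unadjusted p under 0.05. The 3 were Col5a2, Col4a2 and Col4a1. Col5a2 was higher by 2.08 in KO iPSCs and at -0.71 in KO ESCs, and Col4a1 was at 3.11 and 0.42 on the log2 scale. Without iPSC KO replicate 1, 1 gene passed, and without iPSC KO replicate 3 or ESC KO replicate 3 1 other gene had a smaller effect in iPSCs. KO ESCs were clones and WT ESCs 1 line, so cloning and genotype cannot be told apart in ESCs.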

How the data were processed

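The authors removed adapters with cutadapt, mapped 75-base single-end reads to GRCm38.p6 with STAR, counted them per gene with Rsubread and normalised with DESeq2. The study's reporting summary names a version for DESeq2. Those of the other tools named here and the strand setting were not given in the sources used here. Whole-number gene counts, as deposited, were tested. The normalised signal that the authors deposited equals these counts divided by size factors and was used as a check. Their log2 values, fold changes and p-values were not used.

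The 36 libraries were fitted with DESeq2 1.42.0 in R 4.3.3 as a single factor of 12 groups (Wald test, unshrunk log2 fold changes). FDR is the Benjamini-Hochberg adjusted p over all genes tested, and a call needs an FDR under 0.05. edgeR 4.0.16 (quasi-likelihood), TMM size factors, a filter of 10 counts in 3 libraries, a fold threshold of log2 1, compared groups only, the replicate number as a block and leaving out each library were alternatives. The fits were tested on simulated data. Lengths per kb are those of the principal GENCODE vM21 transcript.

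Same-numbered libraries deviated from their group means together with a correlation over 0.1 in every pair for 3 comparisons: D3 KO and WT (0.456, 0.101 and 0.272), D7 KO and WT (0.339, 0.172 and 0.392) and D7 and D5 WT (0.259, 0.116 and 0.235). D5 KO and WT (0.268, 0.0897 and 0.221) and D5 and D3 WT (0.158, 0.0614 and 0.208) fell short in replicate 2 only. The reported calls use no pairing. The block is a single replicate term over all 36 libraries, also where no such pairing was seen, so it is not a paired test of 1 comparison. Pairs of replicates differed by 3.37 to 120 times the counting variance, and the study calls the reprogramming samples and iPSC clones independent. For MEFs and ESCs the sources used here do not say so, and p-values there may measure technical spread. Library preparation dates were not used here, so batch and group cannot be told apart.

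Members, lists and tests were chosen with earlier results of these data known. Named genes are the 2 most abundant per class, per KO comparison at most 6 by lowest FDR, per stage comparison the 3 largest changes each way, and at most 6 interactions. Others were named after their values were seen.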

Additional observations from a re-analysis of the deposited data

Results flagged for a closer look

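The 11 results below are given here because the KO effect on a collagen gene differed between stages by a test of the difference itself, an interaction term in DESeq2 with the FDR over all genes tested. Between D7 and D3 the difference in log2 fold change was -0.85 for Col5a1, -0.91 for Col6a1, -1.02 for Col14a1, -0.97 for Col16a1, -1.24 for Col8a1, -1.18 for Col6a3 and -1.09 for Col11a1, each more negative at D7. Of these, Col14a1, Col16a1 and Col8a1 did not pass in edgeR, and Col16a1 and Col6a1 did not pass with the replicate block. For Col6a1 the D3 value was positive and the D7 value did not pass on its own, so its difference came from both days. Between D7 and D5 the difference was -0.77 for Col5a1, from a fit added after the data were seen, and it did not pass in edgeR or in the compared groups alone. Between iPSCs and ESCs it was 2.78 for Col5a2, 2.94 for Col4a2 and 2.68 for Col4a1, each higher in iPSCs. Those of Col4a1 and Col4a2 did not pass in edgeR or in the compared groups alone. Without iPSC KO replicate 1 they did not pass either (DESeq2 FDR 0.1495 and 0.221). Col5a2 passed in all of these fits.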

How the results depend on the processing

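With 3 libraries per group, values near the floor of 3 reads rest on few counts. Of the counts of collagen genes recomputed under settings other than leaving out a library, 153 stayed within 1.5 times the value reported and 15 did not. With edgeR the counts became 0 (D5 KO, lower), 1 (ESC KO, higher), 0 (ESC KO, lower) and 1 (KO effect larger in iPSCs than in ESCs). With the compared groups alone they became 1 (D3 KO, higher), 2 (D5 KO, higher), 5 (D5 KO, lower), 2 (D7 KO, higher), 3 (iPSC KO, higher), 9 (D5 against D3 in WT, lower) and 1 (KO effect larger in iPSCs). With the fold threshold added they became 3 (D5 against D3 in WT, lower) and 4 (KO effect more negative at D7 than at D3). With the replicate block they became 2 (D5 KO, lower) and 0 (ESC KO, lower), at D7 15 collagen genes were lower, and the block moved no other count by over 1.5 times. It changed the D7 call of Col3a1 and the D7 against D3 differences of Col16a1 and Col6a1, as given above, and the ESC call of Col6a1 (DESeq2 FDR 0.0544), and among the named collagen genes it lost no other call. The cause was not tested.

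Leaving out each library in turn gave ranges of 0 to 1 (D5 KO, higher), 0 to 1 (D5 KO, lower), 10 to 21 (D7 KO, lower), 5 to 10 (iPSC KO, higher), 0 to 2 (ESC KO, higher), 0 to 1 (ESC KO, lower), 1 to 2 and 3 to 7 (D5 against D3 in WT, higher and lower), 5 to 16 and 0 to 3 (D7 against D5 in WT, higher and lower), 2 to 4 (ESCs against MEFs in WT, higher), 0 to 1 (iPSCs against ESCs in WT, each direction), 0 to 1 and 2 to 14 (KO effect at D7 against D3, more positive and more negative), and 1 to 4 and 0 to 1 (KO effect in iPSCs against ESCs, larger and smaller). No log2 fold change of a named collagen gene that passed changed sign under the settings run. As a share per kb, the collagen share was 0.0535% in WT and 0.0352% in KO at D7. Fits without MEF KO replicate 3 or iPSC KO replicate 1 in every comparison were added after the data were seen.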

Other observations

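Chains that share a triple helix did not keep 1 ratio through reprogramming. These ratios are of normalised counts per kb of transcript, per library, and were not tested. Col4a1 over Col4a2 was 0.93 to 0.96 in WT MEFs, 1.77 to 1.87 at D3, 1.71 to 2.27 at D7 and 2.39 to 3.10 in WT iPSCs. Col1a1 over Col1a2, which join in type I collagen, was 1.39 to 1.41 in WT MEFs, 1.85 to 2.47 at D3 and 1.26 to 1.37 at D7. Col6a1 over Col6a2 was 1.39 to 1.41 in WT MEFs and 3.18 to 4.24 at D3.

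At D7 some ratios also differed between genotypes without overlap. Col5a1 over Col5a2 was 0.58 to 0.68 in WT and 0.32 to 0.41 in KO, and Col6a3 over Col6a1 was 0.56 to 0.63 in WT and 0.31 to 0.43 in KO. Col6a3 over Col6a1 was already lower in KO at D3, at 0.49 to 0.66 in WT and 0.39 to 0.48 in KO, and at D5, at 0.49 to 0.57 and 0.37 to 0.38. Col5a1 over Col5a2 was also lower in KO at D3 without overlap, at 0.79 to 0.91 in WT and 0.59 to 0.73 in KO, whereas at D5 the groups overlapped, at 0.40 to 0.58 and 0.48 to 0.56. In MEFs the Col5a1 over Col5a2 ratio was 1.013 to 1.10 in WT and 0.61 to 1.04 in KO, which overlap.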
